A study of Mus musculus with 23 samples.

Results

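Interferon-stimulated genes were examined in RNA sequencing of flow sorted tdTomato+ lung tumor cells from mice. The 42 genes were chosen by symbol, as genes that interferons are known to induce and that are not MHC genes. All 42 were found among the 35455 genes listed in the table of 14 libraries that compares BRAFV600E with BRAFV600E/PI3KαH1047R tumors, and all 42 among the 35454 listed in the table of 9 libraries that compares PGC1α genotypes. Every mouse carried 1 *Braf* CAT allele (CAT/+), which after CRE recombination expresses BRAFV600E together with tdTomato from the *Braf* promoter. The first table holds CAT/+ tumors at 2 weeks post-initiation (n = 1), 6 weeks (n = 3) and 12 weeks (n = 2), and CAT/+; HR/+ tumors, which also express PI3KαH1047R, at the same weeks (n = 2, 4 and 2). The second holds CAT/+ tumors at 12 weeks with 1 mutant PGC1a allele (PGC1α Het, n = 5) or with 2 (PGC1α Null, n = 4). The mice were 3 to 4 months old, of mixed C57BL/6, 129 and FVB background and of both sexes. CRE came from an adenovirus and was driven by the *Sftpc* promoter, which limits the model to tumors that start in alveolar type 2 (AT2) cells, the surfactant-making cells of the alveolus. The virus dose was higher for the 2 and 6 week tumors than for the 12 week tumors, so dose and time cannot be told apart there.

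Interferons are secreted proteins that warn cells of infection. Type I interferons act through IFNAR1 and IFNAR2 and a complex that holds STAT2 and IRF9, which binds the interferon-stimulated response element (ISRE), whereas interferon gamma acts through IFNGR1 and IFNGR2 and on genes with a gamma-activated site (GAS). The induced genes make proteins that block viral RNA and protein synthesis, attack vacuoles that hold pathogens and tune the response itself, and lung epithelium is one of the tissues that uses them. The members were split by role into 10 genes of the Ifit, Oas and Mx families, called type I style here, 7 guanylate-binding proteins and immunity-related GTPases, called gamma style, 5 sensors, 4 transcription factors, 4 genes of the ISG15 system and 12 other effectors. Many of these genes respond to both kinds of interferon, so the names mark families and not a signal that was measured.

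The values are normalized counts, which sum to 16433820 to 20287296 per library in the first table and 7115753 to 9159567 in the second, and all 42 members passed the filter of a mean of at least 10 in both. Pairwise correlations of libraries over genes ran from 0.78 to 0.93 and from 0.78 to 0.94. All 10 AT2 markers were above 0 in all 23 libraries, but their summed level was 58731 to 230395 in both BRAFV600E/PI3KαH1047R libraries of week 2 and in replicate 1 of week 6, against 461544 to 1260137 in the other 11 libraries of that table. At 12 weeks the Y-linked gene *Kdm5d* went against the sex labels of the 2 BRAFV600E/PI3KαH1047R libraries, with 502 in replicate 1, labelled male, and 4728 in replicate 2, labelled female. This mismatch covers both libraries alike and gives no reason to leave out only replicate 1. The main results that use these libraries are given with and without replicate 1 because it stood apart in the members themselves. In the PGC1α table *Ppargc1a*, the gene that is floxed, was at 75.8, 170, 155, 200 and 561 in the Het libraries and at 72.7, 38.0, 51.6 and 124 in the Null libraries, so that the groups overlapped. Sorted cells were measured in bulk, so fewer cells of a type and less RNA per cell cannot be told apart.

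The most uneven feature of the 42 genes was 1 library. BRAFV600E/PI3KαH1047R 12 week replicate 1 held the highest of 14 values for 33 of the 42 members, where 9.55% of all 17558 genes tested had their highest value in that library. It exceeded the next highest library by more than 2 times for 18 of the 42 members, against 1.61% of all genes. On log2 (normalized count + 1), with each gene set to its own median over the 14 libraries, the median member was 1.96 above that level in this library, while the 13 other libraries ran from -0.70 to 0.58. The 18 genes were 6 of the 10 of type I style, 5 of the 7 of gamma style, 1 of the 5 sensors, 2 of the 4 transcription factors, 2 of the 4 genes of the ISG15 system and 2 of the 12 other effectors.

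**Figure D1:**
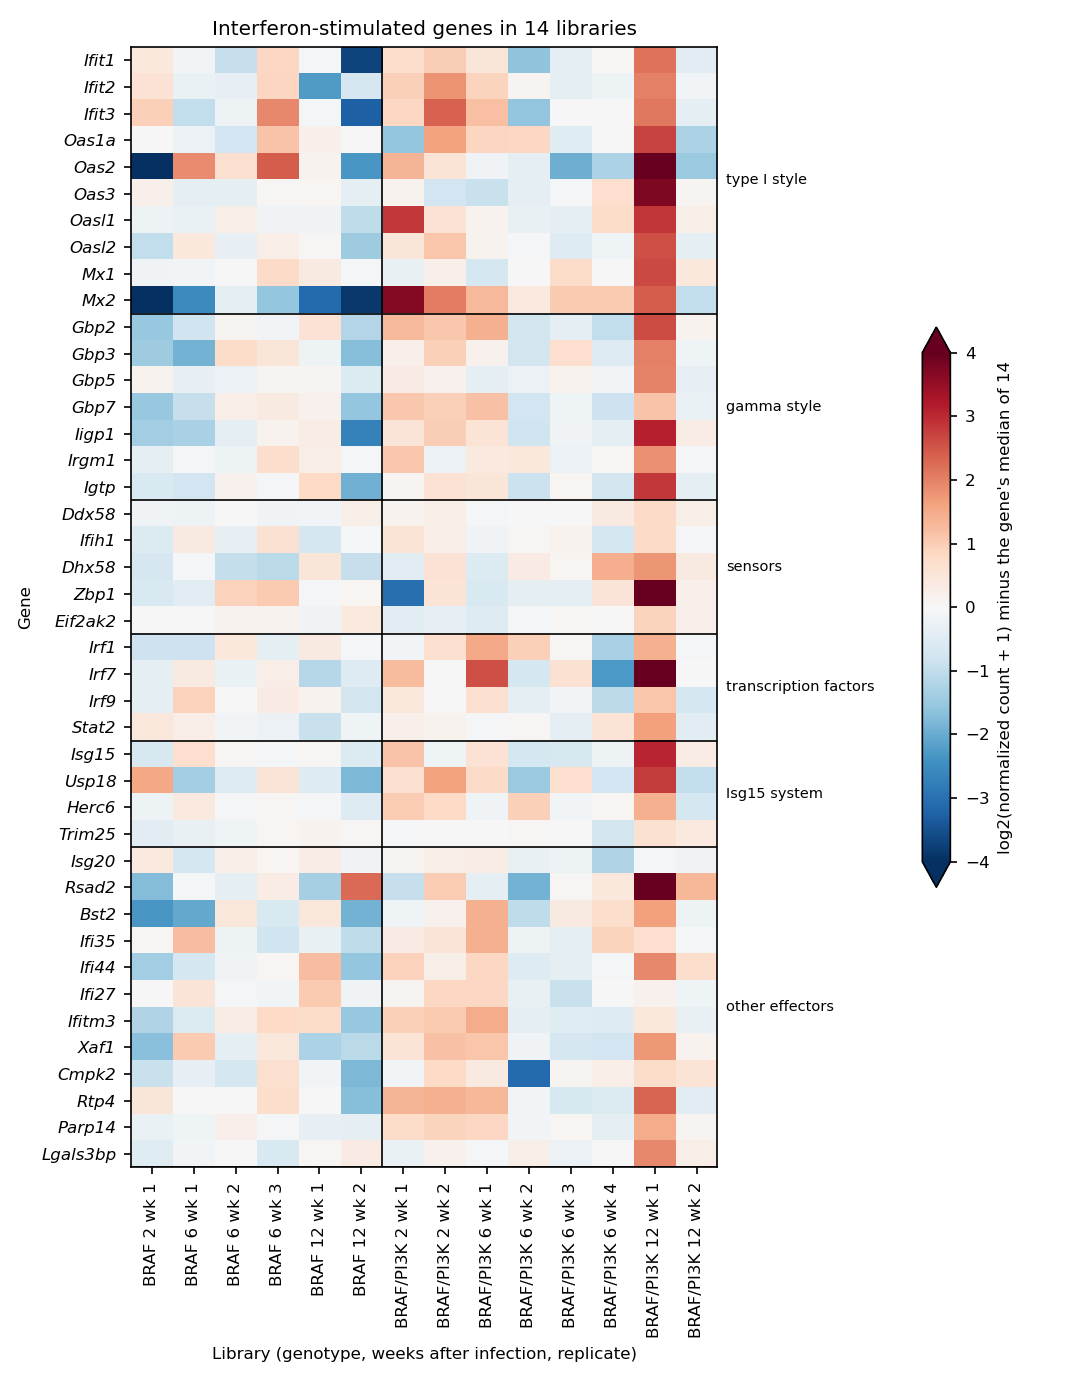
Each row is 1 of the 42 interferon-stimulated genes and each column 1 of the 14 libraries of the BRAFV600E and BRAFV600E/PI3KαH1047R comparison. Color gives log2 (normalized count + 1) minus the gene's median over the libraries, with the scale ending at 4 in both directions, and BRAFV600E/PI3KαH1047R 12 week replicate 1 is the column where 33 of the 42 genes have their highest value.

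Within the type I style genes, *Oas3*, which makes the 2',5'-oligoadenylates that switch on RNase L, showed this most clearly. Its normalized counts were 175 at 2 weeks, 116, 116 and 157 at 6 weeks and 160 and 115 at 12 weeks in BRAFV600E tumors, and 168 and 88.3, then 80.5, 114, 146 and 243, then 2027 and 164 with PI3KαH1047R. Only 12 week replicate 1 stood apart, 8.33 times above the next highest library, and the other 13 libraries of both genotypes overlapped. *Ifit1*, which binds viral RNA caps and blocks its translation, was less even: 528 at 2 weeks, 369, 210 and 708 at 6 weeks and 386 and 29.6 at 12 weeks in BRAFV600E tumors, against 645 and 787, then 552, 130, 303 and 409, then 1811 and 288. Replicate 1 was again the highest, and the lowest value was that of BRAFV600E 12 week replicate 2. *Ifit3*, a partner of *Ifit1*, had the same low library, at 26.8, and its highest value, 1378, in BRAFV600E/PI3KαH1047R 2 week replicate 2 rather than in 12 week replicate 1, at 1155. A share of 61.8% of the 31-base stretches of *Ifit3* transcripts also occurs in *Ifit3b*, and 68.7% of those of *Oas1a* in *Oas1g*, so the values of these genes depend on how reads were divided between the copies.

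*Oas2*, from the same family as *Oas3*, was listed at 0 in the BRAFV600E 2 week library, at 149, 62.5 and 217 at 6 weeks and at 43.4 and 7.08 at 12 weeks. With PI3KαH1047R it was at 103 and 58.3, then 36.0, 30.5, 9.52 and 16, then 798 and 13.6. At 6 weeks every BRAFV600E library was above every BRAFV600E/PI3KαH1047R library, an order found in 2.6% of all genes, and at 2 weeks, with 3 libraries, the order was the opposite, as in 36.6% of all genes. *Mx1*, a GTPase that blocks virus replication in the nucleus and that many laboratory strains carry in a defective form, was at 73.6 to 207 in 13 libraries and at 757 in 12 week replicate 1. *Oasl2*, which is related to the Oas enzymes, was at 332 to 1916 in 13 libraries and at 5357 in replicate 1.

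*Mx2*, the neighbour of *Mx1* on chromosome 16, was the member whose levels differed most between the genotypes. BRAFV600E tumors held 0 at 2 weeks, 4.97, 25.4 and 11 at 6 weeks and 3.06 and 1.4 at 12 weeks. BRAFV600E/PI3KαH1047R tumors held 440 and 143, then 84.5, 45.1, 70.9 and 70.3, then 185 and 16.7. Of the 8 libraries with PI3KαH1047R, 7 were above every BRAFV600E library, and the exception was 12 week replicate 2. Unlike most members, *Mx2* was not highest in 12 week replicate 1 but in 2 week replicate 1. The next highest were 12 week replicate 1, 2 week replicate 2 and 6 week replicate 1. Both 2 week libraries and 6 week replicate 1 had low AT2 marker sums.

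Among the gamma style genes, *Igtp*, an immunity-related GTPase that acts at vacuoles holding pathogens, was at 258 at 2 weeks, 230, 445 and 377 at 6 weeks and 690 and 103 at 12 weeks in BRAFV600E tumors. With PI3KαH1047R it was at 429 and 593, then 551, 218, 415 and 238, then 2800 and 310. Replicate 1 of week 12 was 4.06 times above the next highest library, and the other values overlapped between the genotypes. *Iigp1*, another such GTPase, was at 231, then 252, 482 and 671, then 748 and 92.6 in BRAFV600E tumors and at 874 and 1215, then 907, 356, 562 and 463, then 5281 and 762 with PI3KαH1047R. The highest BRAFV600E library was below 5 of the 8 libraries with PI3KαH1047R. *Gbp5*, a guanylate-binding protein that promotes inflammasome assembly, varied least outside replicate 1, from 300 to 545, and was at 1751 there. *Irgm1*, which regulates the other immunity-related GTPases, was at 262 to 738 in 13 libraries and at 1229 in replicate 1.

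*Gbp7*, a guanylate-binding protein, followed another order. It was at 670 at 2 weeks, 1024, 2310 and 2469 at 6 weeks and 2168 and 664 at 12 weeks in BRAFV600E tumors, and at 4120 and 3725, then 4371, 1125, 1719 and 1096, then 4215 and 1594 with PI3KαH1047R. The 4 highest libraries were the 2 week libraries and 6 week replicate 1, which had low AT2 marker sums, and 12 week replicate 1, which did not. *Gbp2*, of the same family, was at 147, then 243, 458 and 391, then 625 and 185 in BRAFV600E tumors and at 1035 and 900, then 1132, 252, 331 and 213, then 2597 and 462 with PI3KαH1047R. The same 4 libraries were its highest.

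By GENCODE vM21 on GRCm38.p6, several members lie side by side. The 3 Ifit genes are at chr19:34550694-34650009, the 4 Gbp genes at chr3:142493978-142638008, *Oas1a*, *Oas2* and *Oas3* at chr5:120730333-120907521, and *Mx1* and *Mx2* at chr16:97447035-97560900. Promoter windows of 250 bases before to 50 after the start, from RefSeq on GRCm38.p6, were found for 32 of the 42 members, and not for *Ifi27*, *Mx1*, *Usp18*, *Dhx58*, *Oas2*, *Parp14*, *Mx2*, *Zbp1*, *Iigp1* and *Rtp4*. On either strand, the ISRE core GAAANNGAAA was in 18 of the 32 windows, against 3.44% of 32851 windows of all genes, and the GAS letters TTCNNNGAA were in 11, against 8.30%. Of the 7 members with both, the matches overlapped in *Bst2* and *Ifitm3*. The ISRE core was in all 6 gamma style windows and in 4 of the 7 of type I style, and the GAS letters were in 3 of the 6 and 2 of the 7. Both motifs thus occurred in both families. Such a match is a description of the letters and not a measured binding site. The windows of *Oas3* (chr5:120777610-120777909, minus strand) and *Igtp* (chr11:58199306-58199605, plus strand) are printed whole, as a type I and a gamma style gene whose values in replicate 1 were far above the other libraries, and that of *Irf1* (chr11:53769764-53770063, plus strand) as a window with a GAS match and no ISRE match. Capitals mark the ISRE match in *Oas3* and *Igtp* and the GAS match in *Irf1*. The *Igtp* window also holds a GAS match, which starts at -45 from the start site and is left in lower case.
Oas3: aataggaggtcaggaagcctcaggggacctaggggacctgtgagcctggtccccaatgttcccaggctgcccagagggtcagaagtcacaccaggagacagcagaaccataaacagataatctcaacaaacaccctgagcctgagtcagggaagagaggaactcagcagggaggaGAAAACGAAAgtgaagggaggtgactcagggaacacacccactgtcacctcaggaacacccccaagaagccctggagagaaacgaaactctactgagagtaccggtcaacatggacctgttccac
Igtp: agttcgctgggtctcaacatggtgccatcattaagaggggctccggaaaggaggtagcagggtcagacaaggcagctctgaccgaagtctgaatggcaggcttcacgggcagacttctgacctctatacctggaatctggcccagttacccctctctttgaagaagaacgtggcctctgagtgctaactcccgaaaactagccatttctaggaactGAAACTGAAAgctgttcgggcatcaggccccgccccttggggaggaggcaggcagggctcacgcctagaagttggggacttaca
Irf1: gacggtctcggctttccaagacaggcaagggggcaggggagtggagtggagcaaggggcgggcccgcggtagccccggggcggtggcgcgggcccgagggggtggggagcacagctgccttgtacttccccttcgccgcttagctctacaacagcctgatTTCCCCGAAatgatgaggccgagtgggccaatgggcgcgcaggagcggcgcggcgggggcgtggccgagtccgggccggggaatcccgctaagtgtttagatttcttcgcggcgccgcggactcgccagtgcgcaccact

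Stretches of 60 bases around the ISRE match are printed for other members whose values are described, 5' to 3' on the strand of the gene, with the match in capitals, which reads TTTC first where it lies on the opposite strand. *Ifit1* (chr19:34640779-34640838), *Ifit3* (chr19:34583382-34583441) and *Oas1a* (chr5:120907505-120907564) stand for the type I style genes. *Rsad2* (chr12:26456538-26456597), *Gbp2* (chr3:142620579-142620638), *Gbp7* (chr3:142530258-142530317), *Irgm1* (chr11:48871410-48871469) and *Isg15* (chr4:156200850-156200909) stand for the others.
Ifit1: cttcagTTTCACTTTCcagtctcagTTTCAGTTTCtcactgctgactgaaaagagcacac
Ifit3: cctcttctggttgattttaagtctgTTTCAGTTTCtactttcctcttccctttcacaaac
Oas1a: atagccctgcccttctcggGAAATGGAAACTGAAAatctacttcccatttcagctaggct
Rsad2: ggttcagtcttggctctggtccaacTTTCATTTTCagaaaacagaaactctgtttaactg
Isg15: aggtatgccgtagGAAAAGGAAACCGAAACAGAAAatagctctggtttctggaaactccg
Gbp2: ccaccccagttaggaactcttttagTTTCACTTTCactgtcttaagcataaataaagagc
Gbp7: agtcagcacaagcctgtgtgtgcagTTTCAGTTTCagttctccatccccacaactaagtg
Irgm1: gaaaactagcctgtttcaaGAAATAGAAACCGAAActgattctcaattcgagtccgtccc

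The sensors recognise foreign nucleic acids. *Zbp1*, which binds Z-form nucleic acid and can start cell death, was at 21.4 at 2 weeks, 24, 62.8 and 69.4 at 6 weeks and 30.8 and 35.2 at 12 weeks in BRAFV600E tumors, and at 3.15 and 48.5, then 21.4, 25.2, 25.5 and 47.9, then 1091 and 37.9 with PI3KαH1047R. Replicate 1 of week 12 was 15.7 times above the next highest library, the widest gap of any of the 42 members, and the other libraries overlapped. The RNA helicases *Ddx58* (RIG-I) and *Ifih1* (MDA5) and the kinase *Eif2ak2* (PKR), which halts translation on viral RNA, were much more even, at 1203 to 2382, 861 to 2367 and 957 to 2523 over the 14 libraries, with replicate 1 highest by 1.34, 1.10 and 1.41 times. *Dhx58* (LGP2), which tunes those helicases, was at 34.8, then 53.1, 28.3 and 25.8, then 78.1 and 28.8 in BRAFV600E tumors and at 40.2 and 83.9, then 38.2, 70.7, 58.4 and 154, then 192 and 71.3 with PI3KαH1047R. The ranges overlapped, since the 78.1 of BRAFV600E 12 week replicate 1 was above 5 of the 8 values with PI3KαH1047R.

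Among the transcription factors, *Irf7*, the factor that amplifies type I interferon production, was at 40.6, then 67.3, 44.0 and 63.3, then 23.3 and 36.7 in BRAFV600E tumors, and at 129 and 52.8, then 321, 31.8, 80.6 and 9.90, then 994 and 52.7 with PI3KαH1047R. The highest 2 libraries were 12 week replicate 1 and 6 week replicate 1. *Stat2* and *Irf9*, which are parts of the ISRE-binding complex, were 2.12 and 1.14 times above their next highest library in 12 week replicate 1, at 2691 and 1261. *Irf1*, a factor induced strongly by interferon gamma, was highest not there (1263) but in 6 week replicate 1 (1348).

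In the ISG15 system, *Isg15*, the ubiquitin-like protein that is attached to other proteins, was at 38.1, then 95.4, 62.0 and 58.3, then 62.1 and 40.9 in BRAFV600E tumors and at 133 and 53.1, then 91.1, 36.6, 38.1 and 52.2, then 503 and 74.5 with PI3KαH1047R. The genotypes overlapped outside replicate 1 of week 12, and the second highest value was that of 2 week replicate 1. *Usp18*, the protease that removes ISG15, was at 18.1 to 200 in 13 libraries and at 452 in replicate 1, a gap of 2.26 times. *Herc6*, the ligase that attaches ISG15 in mice, and *Trim25*, a ubiquitin ligase that activates RIG-I, were 1.32 and 1.17 times above their next highest library there.

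The other effectors were not uniform. *Rsad2* (viperin), which makes a chain terminator of viral RNA synthesis, was at 14.2, then 47.6, 37.4 and 61.0, then 18.8 and 240 in BRAFV600E tumors and at 25.4 and 99.4, then 38.3, 12.4, 50.6 and 66.7, then 1112 and 125 with PI3KαH1047R. It was thus highest in both genotypes at 12 weeks, in 1 library of the BRAFV600E tumors and in both with PI3KαH1047R. Its neighbour on chromosome 12, *Cmpk2*, a mitochondrial nucleotide kinase, ranked 2 of 14 in 12 week replicate 1, with 372 against up to 393 elsewhere, and was 1.79 times the median of the other 13 libraries there. *Lgals3bp*, a secreted glycoprotein, was at 1163 to 2263 in 13 libraries and at 6709 in replicate 1. *Isg20*, an exonuclease of viral RNA, *Ifi35*, *Ifi27* and *Ifitm3* ranked 8, 4, 5 and 6 of 14 there, at 0.88, 1.64, 1.14 and 1.62 times the median of the other 13 libraries.

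*Ifitm3*, a membrane protein that stops viruses from entering the cytosol, was at 898 at 2 weeks, 1403, 2525 and 3564 at 6 weeks and 3452 and 730 at 12 weeks in BRAFV600E tumors, and at 4026 and 4301, then 5820, 1570, 1474 and 1437, then 2757 and 1700 with PI3KαH1047R. The 3 highest libraries were those with low AT2 marker sums. *Bst2* (tetherin), which holds budding viruses at the cell surface, was at 9.34, then 11.4, 69.3 and 32.5, then 70.0 and 13 in BRAFV600E tumors and at 44.9 and 56.8, then 136, 24.4, 64.7 and 82.5, then 159 and 43.6 with PI3KαH1047R. The 3 lowest values were all from BRAFV600E tumors, but the ranges overlapped.

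*Parp14*, an ADP-ribosyltransferase, was at 1468, then 1559, 2033 and 1669, then 1402 and 1329 in BRAFV600E tumors and at 2894 and 3232, then 3094, 1605, 1831 and 1338, then 4879 and 1894 with PI3KαH1047R. Its 4 highest libraries were the same as those of *Gbp7* and *Gbp2*. *Xaf1*, which promotes cell death, was at 121, then 804, 307 and 531, then 160 and 186 in BRAFV600E tumors and at 571 and 874, then 843, 356, 243 and 228, then 1300 and 428 with PI3KαH1047R. At 2 and at 12 weeks every library with PI3KαH1047R was above every BRAFV600E library of that week, as was so for 36.6% and 15.4% of all genes in these small groups, and at 6 weeks they overlapped. Of the members not yet given by library, *Rtp4*, a chaperone of membrane receptors, ran from 21.5 to 366, *Ifi44* from 90.6 to 1000.5, *Ifi35* from 80.0 to 435 and *Ifi27* from 242 to 940 over the 14 libraries. *Ifit2*, of the *Ifit1* family, ran from 93.3 to 1843, *Oasl1*, which represses translation of IRF7, from 4.88 to 85.4, and *Gbp3* from 48.0 to 743, each highest in 12 week replicate 1.

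With the weeks pooled, the members were on the whole higher with PI3KαH1047R, but none passed the test. Of the 42, 38 had a higher mean of log2 (normalized count + 1) in BRAFV600E/PI3KαH1047R tumors and 4 a lower one, where 51.8% of all genes were higher. The median log2 difference was 0.59 over the members and 0.017 over all genes, and by family it was 0.78 for type I style, 0.82 for gamma style, 0.21 for the sensors, 0.46 for the transcription factors, 0.49 for the ISG15 system and 0.59 for the other effectors. At a Benjamini-Hochberg adjusted p under 0.05 over all 17558 genes (limma), 0 of the 42 members were called, and 0.0228% of all genes were. At an unadjusted p under 0.05, 5 members were higher, against 3.46% of all genes, and 0 were lower.

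These 5 were *Mx2*, *Iigp1*, *Bst2*, *Dhx58* and *Parp14*. The log2 difference of *Mx2* was 4.13 (SE 0.76, limma adjusted p = 0.104), that of *Iigp1* was 1.41 (SE 0.57, adjusted p = 0.671), that of *Bst2* was 1.35 (SE 0.54, adjusted p = 0.671) and that of *Dhx58* was 0.98 (SE 0.40, adjusted p = 0.677). All are on the scale of log2 (normalized count + 1), which understates the change of low genes. At the other end, *Isg20* differed by -0.19 (SE 0.25, adjusted p = 0.896) and *Eif2ak2* by -0.10 (SE 0.20, adjusted p = 0.936). No member had every BRAFV600E/PI3KαH1047R library above every BRAFV600E library, and 0.0854% of all genes did.

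The size of the shared difference depended on single libraries, while most members stayed higher with PI3KαH1047R. Without BRAFV600E/PI3KαH1047R 12 week replicate 1, 33 of the 42 members were higher, the median was 0.40 and 3 members had an unadjusted p under 0.05, against 4.45% of all genes. These were *Mx2* (3.98), *Iigp1* (1.04) and *Bst2* (1.17), whereas *Dhx58* (0.79) and *Parp14* (0.46) no longer had one. Type I style then had 6 of 10 genes higher with a median of 0.49, and gamma style 7 of 7 with a median of 0.70. Whether the families differed in this was not tested. Among the 4 type I style genes that were no longer higher, the difference of *Oas3* went from 0.45 to -0.03. That of *Zbp1*, a sensor, went from 0.09 to -0.60. Without BRAFV600E 12 week replicate 2 the median was also 0.40, with 38 higher and 1 (*Mx2*) under 0.05, against 2.86% of all genes. Without BRAFV600E/PI3KαH1047R 12 week replicate 2, *Mx2* was called, against 0.0398% of all genes. With sex as labelled as a factor the median was 0.30, with 33 higher and 1 (*Mx2*) under 0.05, against 2.76%. With the sexes of the 2 mismatched libraries exchanged the median was 0.70. In BRAFV600E/PI3KαH1047R 12 week replicates 1 and 2, *Ddx3y* was at 55.4 and 1420, *Uty* at 408 and 1580 and *Eif2s3y* at 30.2 and 1309. These went against the sex labels as *Kdm5d* did, so the fit with sex as labelled used labels in doubt.

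**Figure D2:**
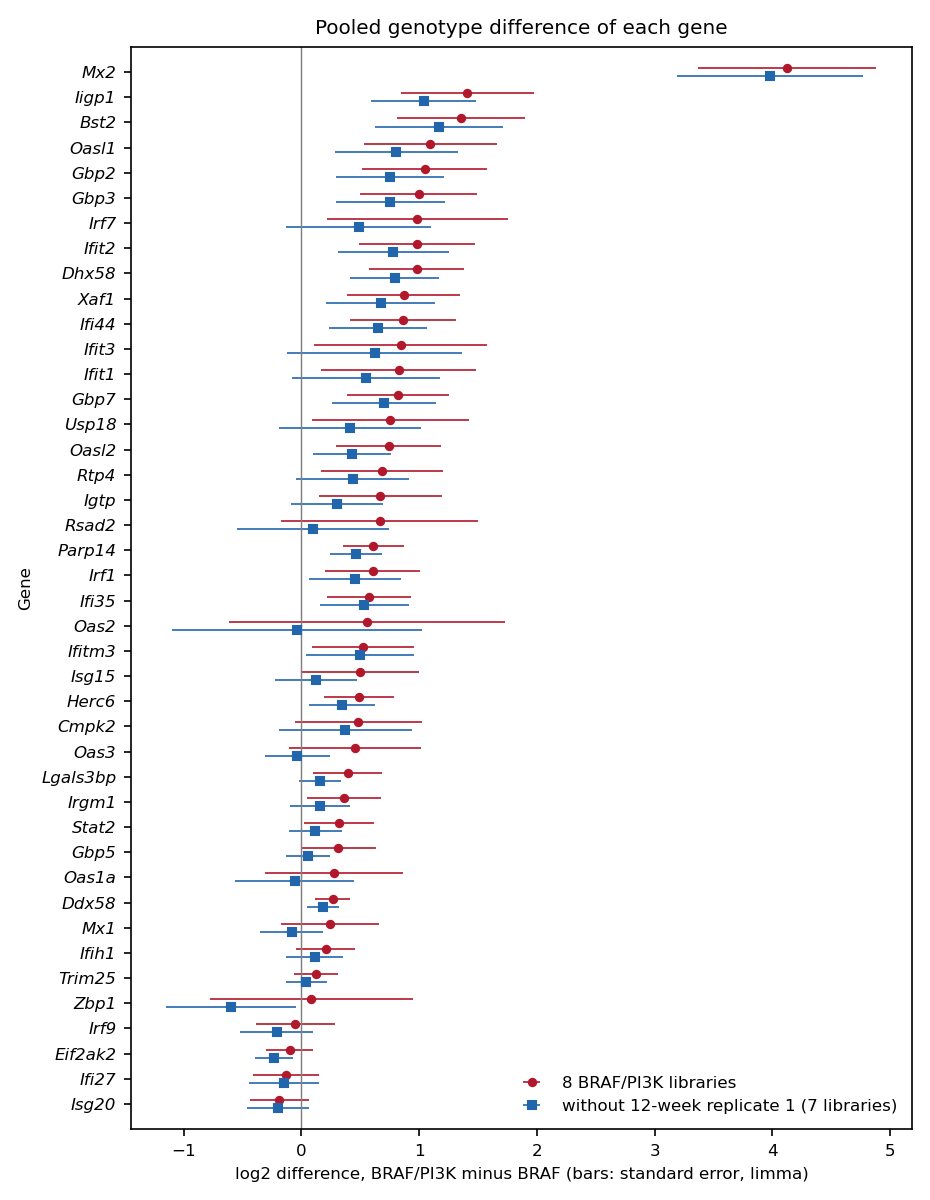
Log2 difference in normalized count + 1, BRAFV600E/PI3KαH1047R minus BRAFV600E with weeks together, for each of the 42 members, as circles, with squares for the value without BRAFV600E/PI3KαH1047R 12 week replicate 1 and bars of 1 SE. *Mx2* stands alone at 4.13, and *Zbp1* and *Oas3* are among the members that move to below 0 without that library.

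Week by week the genotypes differed unevenly. At 2 weeks 36 of the 42 members were higher with PI3KαH1047R, the median was 0.93, and gamma style (2.01, 7 of 7 higher) exceeded type I style (0.71, 9 of 10 higher). The sole BRAFV600E library had a median deviation of -1.40 for gamma style and -0.08 for type I style. In the 2 libraries with PI3KαH1047R type I style was the higher family, at 0.76 against 0.51 and 1.04 against 0.95. Again 0 members were called, against 0.0171% of all genes, and 6 were higher at an unadjusted p under 0.05, against 6.93%. These were *Mx2*, *Oas2*, *Xaf1* (2.54), *Gbp7* (2.55), *Gbp2* (2.71) and *Ifitm3* (2.21), with limma adjusted p of 0.068 for *Mx2* and of 0.169 to 0.339 for the others. *Mx2* and *Oas2* are listed at 0 in the BRAFV600E library, so no size is given for them and their p-values depend on the pseudocount of 1. *Mx2* was called with any value above 0 as the filter, against 0.391% of all genes, without BRAFV600E/PI3KαH1047R 2 week replicate 2, against 0.33%, and without 6 week replicate 1, against 1.53%. This comparison rests on 1 BRAFV600E library, female, which is assumed to vary like the other groups, against 2 male libraries with low AT2 marker sums, so genotype, sex and cell makeup cannot be told apart.

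At 6 weeks, the time with the most libraries, the members did not move together: 20 of the 42 were higher, and the median was -0.02. None was called, against 0.0228% of all genes. *Mx2* was higher at an unadjusted p under 0.05 (2.44, SE 0.81), against 2.24% of all genes, and *Oas2* was lower (-2.58, SE 1.13), against 1.99%. They were also the 2 members whose groups did not overlap at 6 weeks, where 2.63% of all genes had every BRAFV600E/PI3KαH1047R library above and 2.6% had every one below. Without BRAFV600E 6 week replicate 1 neither had an unadjusted p under 0.05, against 1.67% of all genes higher and 1.42% lower, and the median was -0.15.

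At 12 weeks 40 of the 42 were higher and the median was 1.44, with 2.28 for type I style and 1.68 for gamma style. None was called, against 0.0114% of all genes, and 9 had an unadjusted p under 0.05, against 2.18%: *Mx2* (4.20), *Iigp1* (2.92), *Ifit1* (2.73), *Ifit2* (2.42), *Xaf1* (2.11), *Oas3* (2.08), *Isg15* (1.92), *Oasl2* (1.80) and *Parp14* (1.15). Without BRAFV600E/PI3KαH1047R replicate 1, 33 were higher, the median was 0.32 and only 1 (*Mx2*, 2.51) had an unadjusted p under 0.05, against 1.14% of all genes, with 1 library left in that group. Without replicate 2 the median was 2.41, and without BRAFV600E replicate 2 it was 0.91. The size of the 12 week difference thus depended on which of these 3 libraries were in the fit.

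Time was compared within each genotype. From 2 to 6 weeks in BRAFV600E tumors 32 of the 42 were higher at 6 weeks and the median was 0.38, with 0 called, against 0.0% of all genes, and 3 higher at an unadjusted p under 0.05 (*Oas2*, *Mx2* and *Xaf1*), against 4.36%. The 2 week group is the same single library, with *Oas2* and *Mx2* listed at 0, so these p-values take their spread from the other groups. From 6 to 12 weeks 13 of the 42 were higher, the median was -0.49 and that of type I style was -1.18, again with 0 called, against 0.0% of all genes. *Ifit2* (-1.56, SE 0.67) and *Xaf1* (-1.55, SE 0.62) were lower at an unadjusted p under 0.05, against 2.0%. Here 1 library also mattered, since without BRAFV600E 12 week replicate 2 the median was 0.01, without replicate 1 it was -0.77 and without 6 week replicate 3 it was -0.31.

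With PI3KαH1047R, 10 of the 42 were higher at 6 than at 2 weeks and the median was -0.60, with 0 called, against 0.159% of all genes, and 0 at an unadjusted p under 0.05 in either direction, against 7.72% of all genes higher and 5.64% lower at 6 weeks. From 6 to 12 weeks 40 of the 42 were higher and the median was 0.96, with 0 called, against 0.0114% of all genes. *Rsad2* (3.35), *Zbp1* (2.80), *Oas3* (2.09), *Isg15* (1.91), *Iigp1* (1.90), *Mx1* (1.52), *Lgals3bp* (1.09), *Trim25* (0.68) and *Eif2ak2* (0.68) made up the 9 at an unadjusted p under 0.05, against 2.27% of all genes. Without 12 week replicate 1 the median was -0.08, 19 of 42 were higher and 0 had such a p, against 0.794%. Without replicate 2 the median was 1.92 and 30 had such a p, against 3.22%, and *Oas3* was called, against 0.142%. Either omission leaves 1 library at 12 weeks, without replicate 2 the one that was highest for 33 of the 42 members, and the p-values then take its spread from the other groups.

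The difference between these courses, the genotype difference at 12 weeks minus that at 6 weeks, was above 0 for 40 of the 42 and had a median of 1.41. None was called, against 0.0% of all genes, and *Xaf1*, *Oas2*, *Ifit2*, *Isg15* and *Oasl2* had an unadjusted p under 0.05, against 1.54%. Without BRAFV600E/PI3KαH1047R 12 week replicate 1 the median was 0.35 and 0 had such a p, against 1.02% of all genes. Without replicate 2 the median was 2.27 and 29 had such a p, against 2.26%, again with replicate 1 as the sole 12 week library of that genotype.

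Type I and gamma style could be set against each other within each library, as the median deviation of the 10 genes minus that of the 7. The difference ran from -0.44 to 1.33 over the 14 libraries, was above 0 in 4 of 6 BRAFV600E and in 5 of 8 BRAFV600E/PI3KαH1047R libraries, and so overlapped throughout. In 12 week replicate 1 both families were high, at 2.61 for type I style and 2.02 for gamma style, and its difference of 0.59 was inside the range of the other libraries. In the libraries of 2 weeks with PI3KαH1047R both were above 0, at 0.76 and 1.04 for type I style and at 0.51 and 0.95 for gamma style. In BRAFV600E 12 week replicate 2 both were low, at -1.22 and -1.54. The BRAFV600E 2 week library was the one most unlike the others, with type I style at -0.08 and gamma style at -1.40.

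**Figure D3:**
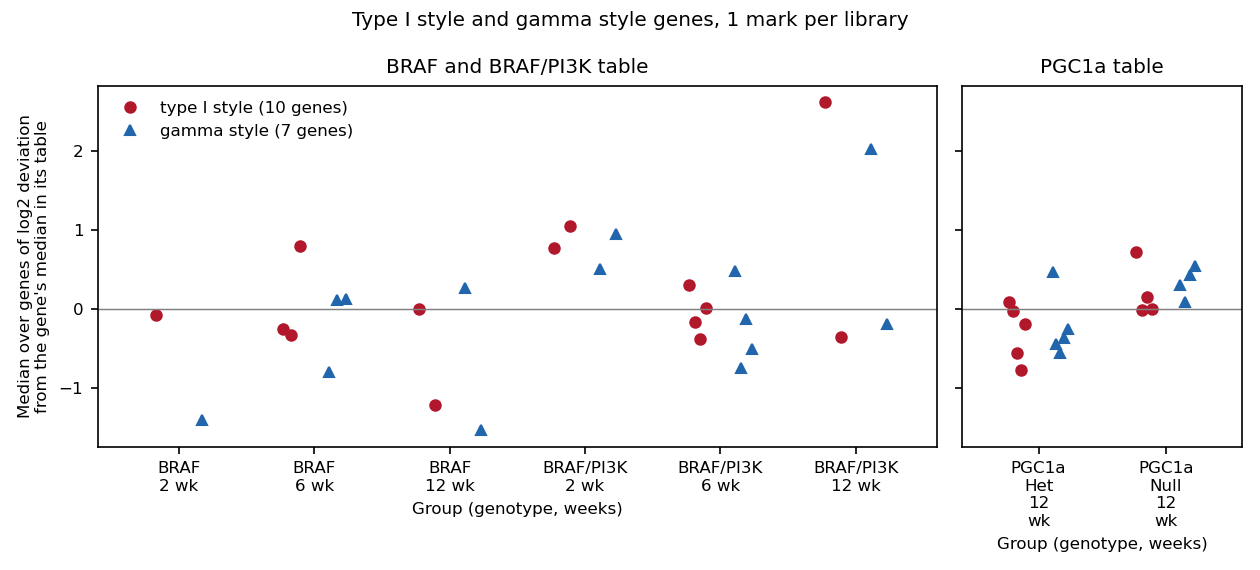
For each of the 23 libraries, by group on the x axis, a circle gives the median over the 10 type I style genes and a triangle that over the 7 gamma style genes of the log2 deviation from the gene's median in its table. BRAFV600E/PI3KαH1047R 12 week replicate 1 lies alone at 2.61 and 2.02, and the PGC1α groups, on the right, lie between -0.77 and 0.72.

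Markers of other cells moved with some members. In 12 week replicate 1 the summed level of 12 myeloid markers was 11793, against 2758 to 4827 in the other 7 libraries with PI3KαH1047R and 2232 to 5773 in BRAFV600E tumors. All 12 were above 0 there, and 8 of the 12 had their highest value of the 14 libraries there. These 8 were the macrophage markers *Adgre1* (723, at most 132 elsewhere), *Siglec1* (988, at most 253), *Cd68* (1439, at most 510) and *Marco* (127, at most 78.2), the integrin *Itgam* (2397, at most 550) and the complement genes *C1qa* (144, at most 31.4), *C1qb* (290, at most 148) and *C1qc* (327, at most 116). *Csf1r*, *Mrc1*, *Itgax* and *Ptprc* were below their highest value elsewhere. *Marco* was at 0 in 1 of the other libraries and *C1qa* in 3. The T and NK cell sum (777), the plasmacytoid dendritic cell sum (3905) and the endothelial sum (12746) of that library were inside the ranges of the other libraries, and its AT2 sum was 714845. The part of myeloid cells in the values of replicate 1 was not tested.

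Endothelial markers were highest in other libraries, but the members did not split into separate sets by this. *Gbp2* and *Iigp1* were highest in 12 week replicate 1 and next highest in the 3 libraries with the highest endothelial sums. The endothelial sum over 10 genes, all above 0 in all 14 libraries, was 5879 to 41444 in BRAFV600E tumors and 12746 to 84651 with PI3KαH1047R. The highest sums were 84651, 60069 and 58643, in 6 week replicate 1 and in 2 week replicates 2 and 1 with PI3KαH1047R, the same libraries that had low AT2 sums and the highest values of *Ifitm3*. Among the 13 libraries other than 12 week replicate 1, the 6 with the highest endothelial sums were also the 6 with the highest *Gbp7*, and the 3 with the lowest sums, BRAFV600E 12 week replicate 2, the 2 week library and 6 week replicate 1, were the 3 with the lowest *Gbp7*. The sum of 6 fibroblast markers was highest in the same 3 libraries, at 22688, 33003 and 23610, against at most 12317 elsewhere. So was the sum of 4 plasmacytoid dendritic cell markers, at 16260, 12136 and 12192 against at most 7233, of which *Tcf4* made up 15933, 11860 and 11842, while *Siglech* was at 17.1, 34.5 and 90.6 there and at up to 184 elsewhere. In which cells *Gbp7* and *Ifitm3* were measured was not tested.

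**Figure D4:**
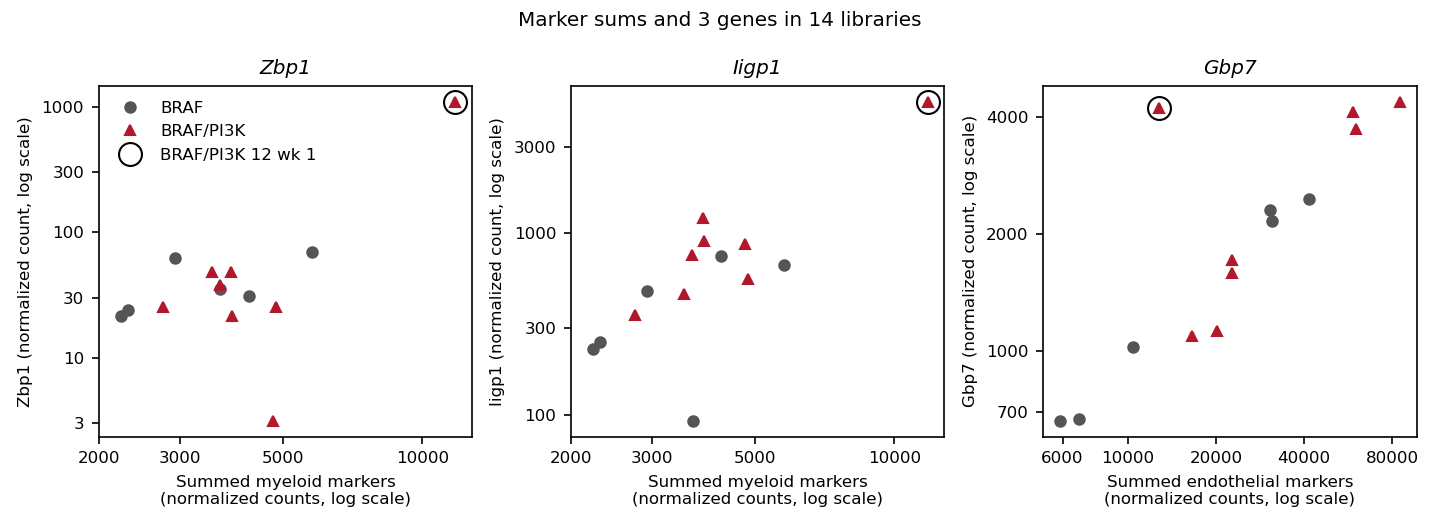
Each point is 1 of the 14 libraries, with the normalized counts of *Zbp1* and *Iigp1* plotted against summed myeloid markers and those of *Gbp7* against summed endothelial markers, all on log axes. BRAFV600E/PI3KαH1047R 12 week replicate 1, circled, has the highest myeloid sum, 11793, with the highest *Zbp1* and *Iigp1*, and it lies away from the other libraries in the plot of *Gbp7*.

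Of the genes upstream of the members, the interferons themselves were mostly listed at 0 in the first table. This was less so in the PGC1α table, where *Ifna16* was at 2.54 to 39.2. Of 21 interferon genes, 15 were listed at 0 in all 14 libraries, among them *Ifnb1* and 11 of 13 Ifna genes. *Ifnab* was above 0 in 1 library, at 67.3 in BRAFV600E/PI3KαH1047R 2 week replicate 1, and *Ifng* was at 0 to 58.9. In 12 week replicate 1 *Ifng* was at 3.81 and *Ifnab* at 0. In the first table only *Ifnk*, which skin cells make, passed the filter. All 6 receptor genes, 7 of 8 genes of the JAK and STAT relay and all 17 sensing adaptors and kinases were tested there, and 0 were called in any of its comparisons, where 0.0% to 0.159% of all genes were. In the pooled comparison *Tlr9* (1.85, SE 0.77), an endosomal DNA sensor, and *Adar* (0.55, SE 0.24), an RNA-editing enzyme, were among those higher at an unadjusted p under 0.05, with limma adjusted p of 0.677 and 0.684. Without 12 week replicate 1 *Adar* was at 0.56 and *Tlr9* at 1.49, the latter no longer with such a p. *Tlr7*, an endosomal RNA sensor, was at 1946 in 12 week replicate 1 and at 13.9 to 391 elsewhere.

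In the PGC1α table, at 12 weeks, the members were slightly higher in the Null tumors. Of the 42, 35 had a higher mean, where 51.1% of all genes did, and the median log2 difference was 0.25, against 0.011 over all genes. It was 0.84 for gamma style, with 7 of 7 higher, 0.35 for type I style, with 9 of 10 higher, and between -0.14 and 0.29 for the other families. None of the 42 was called by limma, and neither was any other gene (0.0%). At an unadjusted p under 0.05, 3 members were higher, against 2.66% of all genes, and all 3 were guanylate-binding proteins.

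*Gbp7* was at 118, 97.1, 79.9, 77.0 and 88.9 in the Het libraries and at 246, 125, 169 and 147 in the Null libraries. Every Null library was above every Het library, which held for 0.941% of all genes and for no other member, and the log2 difference was 0.86 (SE 0.28, limma adjusted p = 0.898). *Gbp3*, of the same family, was at 27.9, 8.76, 6.78, 14.9 and 10.8 in the Het and at 21.5, 67.7, 60.2 and 36.5 in the Null libraries, with a difference of 1.71 (SE 0.54, adjusted p = 0.878) and 1 overlapping library in each group. *Gbp2* was at 88.0, 20.4, 31.2, 58.0 and 51.7 against 121, 55.5, 81.7 and 129, a difference of 1.03 (SE 0.44, adjusted p = 0.998).

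*Ifitm3* was at 339, 107, 106, 91.2 and 230 in the Het and at 318, 450, 202 and 180 in the Null libraries, with a difference of 0.82 (SE 0.42, limma adjusted p = 0.998) and overlapping groups. *Oas1a* had the lowest statistic, at -1.06 (SE 0.93, adjusted p = 0.998), with 28.8, 20.6, 32.6, 38.1 and 12.0 in the Het and 26.7, 25.3, 30.5 and 0 in the Null libraries. That direction rested on the library listed at 0, without which the difference was 0.15. *Rsad2* was next, at -0.54 (SE 0.65, adjusted p = 0.998), with 15.2 to 121 against 11.2 to 52.2. *Mx2* did not separate these genotypes, with 4.85 to 35.0 in the Het and 9.03 to 53.7 in the Null libraries.

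**Figure D5:**
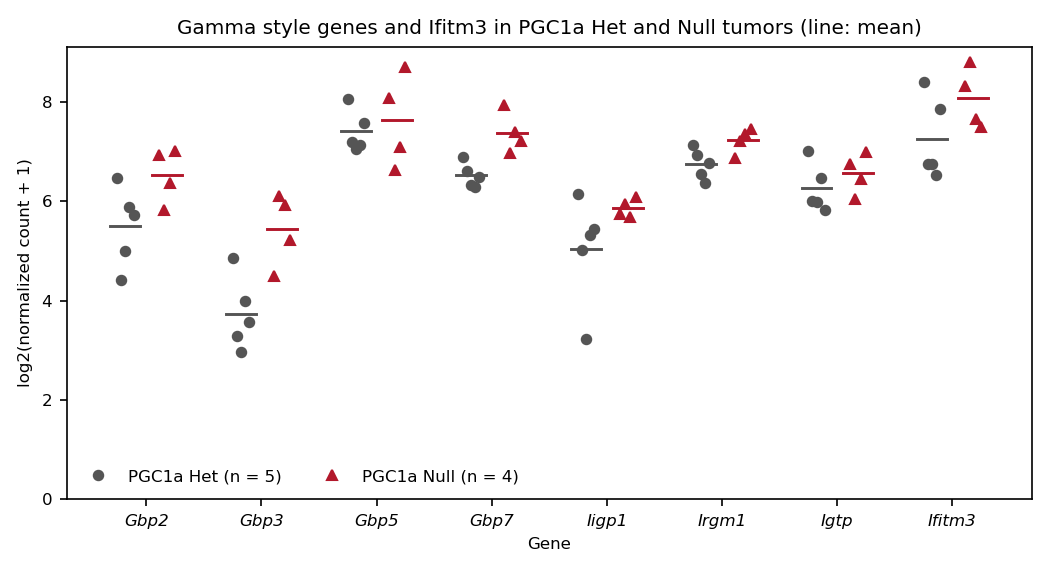
Each point is 1 library and each line a group mean of log2 (normalized count + 1), for the 7 gamma style genes and *Ifitm3* in the 5 PGC1α Het and 4 PGC1α Null libraries. The mean is higher in the Null libraries for all 8 genes, and only for *Gbp7* do the groups not overlap.

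The endothelial sum was 335 to 837 in the 5 Het libraries and 1421 to 2131 in the 4 Null libraries, so it separated the groups as *Gbp7* did, and the fibroblast sum did too, at 117 to 335 against 363 to 1405. *Cldn5* was at 0 in 1 Het library and the other endothelial markers were above 0 in all 9. The myeloid sum was 592 to 2400 against 1879 to 3600 and overlapped, and the AT2 sum was 502615 to 634776 against 387295 to 621071. The part of other cells in the values of the guanylate-binding proteins was not tested.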

How the data were processed

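Libraries were made from sorted tdTomato+ cells by Nugen Ovation Ultralow amplification, and single-end reads of 50 cycles were taken. The signal values in the 2 deposited tables are normalized counts, which the authors estimated with Salmon and scaled with DESeq2 over the libraries of a table (the submitters' processing notes also name FastQC and GRCm38, and give no versions). Of low values, 10.6% to 41.4% and 15.2% to 26.8% were whole multiples of a step (tolerance 0.01), which was not shown to be 1 read. Depth in reads is therefore unknown, and the spread between libraries gives the precision. The authors' comparison tables, which hold log2 fold changes, standard errors, Wald statistics and p-values, were not used.

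Groups came from the labels, which tie no library to an animal, so p-values measure the spread between these samples. Log2 (normalized count + 1) was fitted with limma 3.58.1 (R 4.3.3, trend, two-sided tests) wherever the mean was at least 10, separately in each table, with Benjamini-Hochberg adjustment over all genes at 0.05. The fit was tested on simulated data. Full statistics are given for the 4 highest and 2 lowest members of the pooled and PGC1α comparisons. The members and lists were chosen with earlier results of these data known. Values of 1 pathway gene are not reported here. Alternatives were a pseudocount of 4, a mean over 40, any value above 0, quantile normalization, a replicate block, a factor for week or sex, and leaving out each library or both BRAFV600E/PI3KαH1047R libraries of week 12. Exchanging the sexes of these 2 libraries was added after seeing the data. Tables were made with Python 3.11.15, pandas 2.3.3 and numpy 2.4.6.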

Additional observations from a re-analysis of the deposited data

Results flagged for a closer look

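Among the 8 BRAFV600E/PI3KαH1047R libraries, 12 week replicate 1 lay far from the others in the median deviation of the 42 members, at 1.956 on the log2 scale, and among the members with full statistics *Iigp1* did so too, at 5280.59 normalized counts. *Isg20* was flagged for a low value, 142.98 in 6 week replicate 4 of the same genotype. In the PGC1α Null tumors *Oas1a* was flagged for replicate 4, which is listed at 0.0. Over all 42 members, 8 of the BRAFV600E/PI3KαH1047R sets of values had such a high library and 2 such a low one, against 1 and 3 without 12 week replicate 1. Chance flags about 1 in 20 such groups.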

How the results depend on the processing

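No member was called in any comparison under the alternatives, with these exceptions: *Mx2* in the pooled comparison (log2 difference 4.46, limma adjusted p = 0.0496, 1 member called, against 0.0398% of all genes) and *Oas3* from 6 to 12 weeks with PI3KαH1047R (1 called, against 0.142%), both without BRAFV600E/PI3KαH1047R 12 week replicate 2, which leaves replicate 1 alone at that time, and *Mx2* at 2 weeks (1 called, against 0.33% to 1.53%) with any value above 0 and without BRAFV600E/PI3KαH1047R 2 week replicate 2 or 6 week replicate 1, where the sole BRAFV600E library lists it at 0. Leaving out each library gave 0 to 1 members called in these 3 comparisons. The median log2 difference of the members then ran from 0.3157 to 2.4113 at 12 weeks, from -0.0773 to 1.9155 from 6 to 12 weeks with PI3KαH1047R and from 0.3479 to 2.274 for the interaction, the lowest without BRAFV600E/PI3KαH1047R 12 week replicate 1 and the highest without replicate 2. It ran from 0.40 to 0.72 in the pooled, from 0.79 to 1.07 in the 2 week and from 0.19 to 0.36 in the PGC1α comparison. *Oas1a* turned from -1.06 to 0.1498 without PGC1α Null replicate 4, within a range of -1.5095 to 0.1498 over the libraries left out. Of the other values, 175 medians, 176 counts of called members and 224 differences of named genes kept their direction and their side of the threshold, or moved by less than the spread between libraries.

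Replicate numbers did not pair the samples: the labels tie a number to no shared animal or batch, and deviations of same-numbered libraries correlated at -0.28, -0.03 and -0.01 at 6 weeks and at 0.21, -0.21, 0.14 and -0.47 in the PGC1α table. With the replicate block the median was 0.72 pooled, 0.05 at 6 weeks and 0.33 for PGC1α, with 0 called. The sole BRAFV600E library of 2 weeks could not be left out of the comparisons at 2 weeks. Each group of 1 to 5 libraries and unknown depth limit what these tests could call, and genes at 0 may reflect a failed estimate.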
